A study of Mus musculus with 4 samples.

Results

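The imprinted H19-Igf2 and Kcnq1 domains lie side by side on distal mouse chromosome 7, and 10 of their genes are described here. They were taken by name from the count table, in which each had 1 row (10 of 31247 genes), and 8 of the 10 had enough reads to be tested. In an imprinted domain 1 parental copy of a gene is silenced, and the choice is written in DNA methylation of a control region. At H19-Igf2 the control region is methylated on the paternal copy, where Igf2 is expressed, and is bound by the insulator protein CTCF on the maternal copy, where H19 is expressed. At Kcnq1 the control region is the promoter of the antisense RNA Kcnq1ot1, which is methylated on the maternal copy, so that the RNA is made from the paternal copy and silences Cdkn1c, Kcnq1, Phlda2 and Slc22a18 there in cis. Dnmt1 is the enzyme that copies such methylation when cells divide.

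RNA was sequenced from GFP-positive cells that were sorted from enzymatically dissociated lungs of mice on postnatal day 7. Both groups carried the reporter as Pdgfrb-GFP+/-, which marks mural cells and fibroblasts, and the sorted cells were labelled myofibroblasts. The conditional knockout (CKO) mice carried PDGFRb-GFP together with Tbx4-rtTA and Tet-O-Cre on a Dnmt1-D/D genotype, in which a Tbx4 element drives the activator rtTA, which switches on Cre when doxycycline is present. The wild-type (WT) mice carried PDGFRb-GFP alone, so that rtTA and Cre differ between the groups along with Dnmt1. The time of induction, and how many sorted cells had undergone recombination, cannot be read from the labels. There were 2 CKO and 2 WT samples, each a lung sample of about 300000 to 350000 sorted cells, and the libraries are called CKO A, CKO B, WT A and WT B in column order, with no pairing implied.

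The libraries held between 23071657 and 26420648 counted reads, and WT B had reads on the most genes, 27643 against 21883 to 22532 in the other 3. CKO A alone held reads of the Y-linked genes Ddx3y, Eif2s3y, Kdm5d and Uty, 4444 in all. Dnmt1, the targeted gene, stood at 78.0 CPM (read counts scaled to library size) in CKO A and 29.5 in CKO B, against 144 in WT A and 115 in WT B, and edgeR did not call it (log2 change -1.27 ± 0.57 SE, n = 2 per group, adjusted p = 0.31). With CKO A left out the log2 change of Dnmt1 was -2.11, and with CKO B left out it was -0.72. Each of these fits keeps 1 CKO library, so the spread between the CKO libraries does not enter it, and no call is read from it. Myofibroblast markers summed to 50577 CPM in CKO A and 46869 in CKO B, against 44717 in WT A and 45751 in WT B, with Eln, the elastin gene, giving 36184 and 35486 CPM of those CKO sums. Of the 11 markers, all tested, 5 lay below WT in both CKO libraries (Pdgfra, Myh11, Tgfbi, Wnt5a and Pdgfrb) and 1 lay above (Eln). Of all tested genes 29.3% lay below and 27.7% above. The median log2 change of the markers was -0.28. Among them edgeR called Wnt5a alone, as lower (log2 change -0.79, adjusted p = 0.0135), where 2.75% of all tested genes were called lower. Because whole sorted samples were sequenced, fewer cells of a type and less RNA per cell cannot be told apart. The labels do not say whether counting used strand, and reads from a gene and its antisense partner therefore cannot be told apart.

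H19 is an RNA that encodes no protein and serves as the host of a microRNA. Its gene (ENSMUSG00000000031) spans chromosome 7, 142575529 to 142578143 on the minus strand of GRCm38, and the miR-675 hairpin lies at 142577064 to 142577147, within the annotated exons of H19. The products of that hairpin are shown because they share the transcript with the largest fitted change among the 8 tested genes. RefSeq (GRCm38.p6) gives these mature sequences, 5′ to 3′, with the seed (bases 2 to 8) in capitals:
mmu-miR-675-5p: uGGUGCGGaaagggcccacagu
mmu-miR-675-3p: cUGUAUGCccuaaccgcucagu
The 2 arms have different seeds, and 0 other mature mouse miRNAs of the RefSeq table share either. The microRNA itself was not analysed here, so the values below are those of the long transcript.

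Kcnq1ot1 (ENSMUSG00000101609) is a single-exon RNA of 93092 bases at chromosome 7, 143203458 to 143296549, on the minus strand. It lies inside the plus-strand gene Kcnq1 and shares 121 exonic bases with it. Its promoter, the sequence that sits in the methylated control region of the Kcnq1 domain, is shown because this RNA was the only one of the 10 that passed the test. RefSeq (GRCm38.p6) gives for chr7:143296498-143296797, minus strand, from 250 bases before the start to 50 after it, 5′ to 3′, with each CCAAT in capitals, the pentamer bound by the factor NF-Y:
Kcnq1ot1 promoter: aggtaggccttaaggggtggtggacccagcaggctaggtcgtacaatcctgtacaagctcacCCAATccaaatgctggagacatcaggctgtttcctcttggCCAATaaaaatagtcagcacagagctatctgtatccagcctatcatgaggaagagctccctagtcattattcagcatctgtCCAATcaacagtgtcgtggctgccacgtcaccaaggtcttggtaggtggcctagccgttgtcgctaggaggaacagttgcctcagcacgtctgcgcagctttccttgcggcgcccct
Both strands were searched, as CCAAT and ATTGG, and 3 matches were found, all on the strand of the RNA. At least 1 match was present in 37.4% of 32851 promoters of the same length, and at least 3 in 3.37%. The window holds 9 CG dinucleotides, a number reached or passed by 45.8% of those promoters. Promoters of 7 of the 10 genes were matched, and the 4 of Igf2 held 0 or 1 CCAAT match, those of Cd81 and Slc22a18 held 0, those of Tssc4 and Phlda2 held 1 and that of Ascl2 held 3. These matches describe the sequence and are not evidence of binding.

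Levels of different genes are compared per kilobase of merged exons. H19 averaged 277 CPM per kilobase in CKO cells and 36.2 in WT cells, and Cd81 averaged 244 in CKO and 202 in WT cells. In CKO A Cd81 (251) was above H19 (208) and in CKO B H19 (345) was above Cd81 (236), so that their order in CKO cells was within the spread. Cd81 was the highest of the 10 genes in both WT libraries. Tssc4 stood at 30.3 CPM per kilobase in CKO and 24.9 in WT cells, and Cdkn1c at 26.2 in CKO and 22.8 in WT cells. The WT libraries of H19 (22.0 to 50.4), Tssc4 (23.7 to 26.1) and Cdkn1c (21.1 to 24.5) overlapped on this scale, so that the order of these 3 in WT cells was within the spread. Igf2, Kcnq1ot1, Kcnq1, Slc22a18, Ascl2 and Phlda2 all averaged under 1 CPM per kilobase in both groups. Merged exons were taken from GENCODE M21, because the deposited gene length of H19, 8740 bases, exceeds the 2615 bases its gene spans.

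H19 was at 512 CPM in CKO A and 849 CPM in CKO B, against 124 CPM in WT A and 54.1 CPM in WT B. Both CKO libraries lay above both WT libraries. Within the CKO pair the library with less Dnmt1, CKO B, had more H19, and within the WT pair the library with less Dnmt1, WT B, had less H19. By read count, which also reflects length, H19 ranked 234 among all genes in CKO A and 111 in CKO B, against 1704 in WT A and 3737 in WT B. The fitted level was 7.65-fold higher in CKO cells (log2 change 2.93 ± 0.57 SE, n = 2 per group), but it did not pass edgeR's quasi-likelihood test across all genes (adjusted p = 0.0804). DESeq2 called it (adjusted p = 0.000505), as did limma-voom (adjusted p = 0.0155). For H19 the authors' deposited table lists 2.97 on the log2 scale, at an adjusted p of 1.55e-11.

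The libraries used also decided the call of H19. Without WT A the log2 change was 3.67 (edgeR adjusted p = 0.00345) and without WT B it was 2.47 (adjusted p = 0.0416). Leaving out CKO A gave 3.28 (adjusted p = 0.365) and leaving out CKO B gave 2.53 (adjusted p = 0.394). Over 10 alternatives the change of H19 stayed between 2.47 and 3.67, adjusted p ran from 0.000505 to 0.394, and 4 of them called it.

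Igf2 encodes a fetal growth factor that signals through Igf1r. It had 79 reads in CKO A and 137 in CKO B, against 126 in WT A and 39 in WT B, which is 3.0 and 5.90 CPM in CKO and 5.53 and 1.47 CPM in WT libraries. The groups overlapped, with WT A above CKO A. Its log2 change was 0.36 ± 0.69 (SE, n = 2 per group, edgeR adjusted p = 0.799), and the sign turned to -0.20 without CKO B and -0.30 without WT B. In GENCODE M21 the gene spans chromosome 7, 142650766 to 142666816, and shares 3596 exonic bases, 62.8% of its merged exons, with Gm49394 on the same strand. Gm49394 has no row in the count table, and how shared reads were divided is not stated in the labels, so the level of Igf2 is uncertain.

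**Figure D1:**
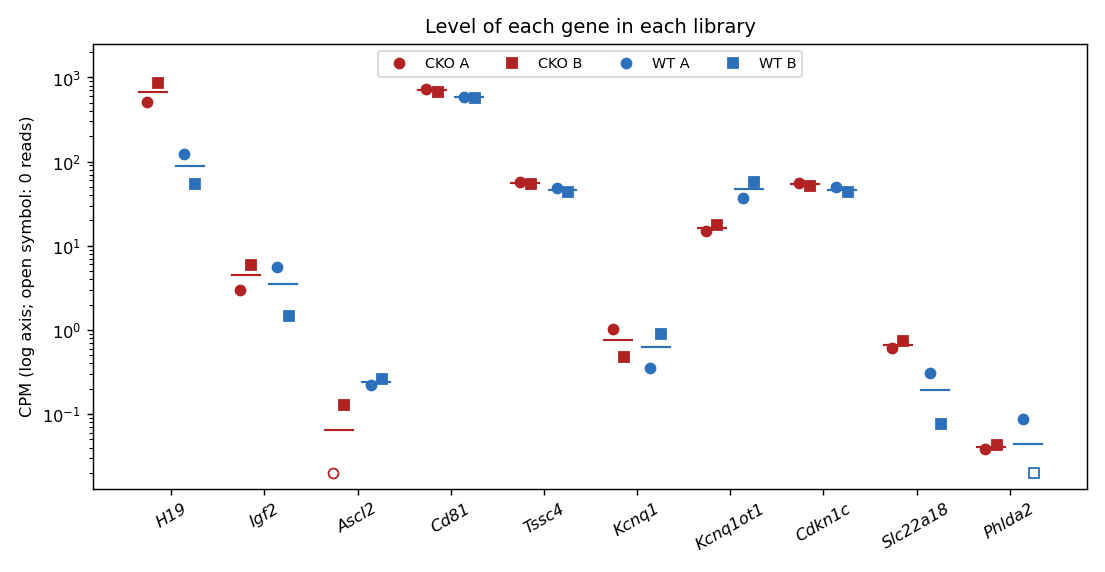
CPM of the 10 genes in each library on a log axis, in their order along the chromosome, with CKO in red left of WT in blue, circles for library A, squares for library B and bars for group means. H19 lies between 512 and 849 CPM in CKO and between 54.1 and 124 CPM in WT libraries, Kcnq1ot1 lies below its WT levels in both CKO libraries, and the open symbols of Ascl2 and Phlda2 stand for 0 reads.

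Within each library there were 171 reads of H19 per read of Igf2 in CKO A and 144 in CKO B, against 22.5 in WT A and 36.8 in WT B. These ratios of raw reads are compared between libraries, not as levels of the 2 genes, and do not depend on library scaling. The groups did not overlap. The mean log2 ratio was 2.45 higher in CKO cells, with an SD of 0.17 in CKO and 0.50 in WT (n = 2 each, exact permutation test, two-sided, p = 0.33). With 2 libraries per group 0.33 is the smallest p this test can give, so it could not pass 0.05. The Igf2 count enters this ratio, and its uncertainty with it.

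Kcnq1ot1 fell in CKO cells. It had 392 reads in CKO A and 409 in CKO B, against 853 in WT A and 1525 in WT B, or 14.9 and 17.6 CPM in CKO and 37.4 and 57.5 CPM in WT libraries. The CKO libraries lay close together and both were below either WT library. The level was 2.92-fold lower in CKO cells (log2 change -1.55 ± 0.22 SE, n = 2 per group, edgeR adjusted p = 0.0135). It was the 1 gene called among the 8 tested, where 7.61% of all 15210 tested genes were called. It was called lower, as were 2.75% of tested genes, and 0 of the 8 were called higher, against 4.85%. DESeq2 (adjusted p = 1.75e-08) and limma-voom (adjusted p = 0.0193) called it as well, and the authors' deposited table lists -1.50 on the log2 scale, at an adjusted p of 1.7e-08. The other 8 genes had adjusted p of at least 0.327 in the authors' deposited table.

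WT B held the most Kcnq1ot1, and without it the log2 change was -1.19. Without WT A it was -1.81, and both fits called it. The call was lost when CKO A was left out (-1.40), and also when CKO B was (-1.66). Each of these fits leaves 1 library in a group, so the spread within that group does not enter it. Other RNAs kept in the nucleus, named here after their values were seen, varied among libraries too. Malat1 was at 111 CPM in CKO A and 160 in CKO B, against 210 in WT A and 949 in WT B, and Neat1 at 5.47 and 8.01 CPM in CKO, against 2.85 CPM in WT A and 14.1 in WT B. Airn, the long antisense RNA of the imprinted Igf2r domain, was at 8.17 CPM in CKO A and 17.8 in CKO B, against 16.8 in WT A and 18.7 in WT B. None of the 3 passed in edgeR (adjusted p = 0.372, 0.85 and 0.497 in the order named), and their part in the result was not tested.

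Cdkn1c encodes the Cdk inhibitor p57, and it is silenced in cis by Kcnq1ot1 on the paternal copy. It was at 55.7 CPM in CKO A and 51.3 in CKO B, against 49.9 in WT A and 42.9 in WT B. The CKO libraries lay above the WT libraries by a small margin, and the log2 change of 0.20 ± 0.12 (SE, n = 2 per group) did not pass (edgeR adjusted p = 0.344). Its range over the 10 alternatives was 0.11 to 0.33, with no call. An antisense gene, Gm44732, covers 30.7% of the merged exons of Cdkn1c.

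Per read of Cdkn1c there were 0.268 reads of Kcnq1ot1 in CKO A and 0.344 in CKO B, against 0.75 in WT A and 1.34 in WT B. Per read of Kcnq1 there were 14.5 reads of Kcnq1ot1 in CKO A and 37.2 in CKO B, against 107 in WT A and 63.5 in WT B. Neither ratio overlapped between groups. The mean log2 ratios were lower in CKO cells by -1.72 for Cdkn1c and by -1.82 for Kcnq1, each with an exact two-sided permutation p of 0.33, again the smallest possible. The ratio to Kcnq1 rests on 8 to 27 Kcnq1 reads per library, and its difference was -1.15 without CKO A, -2.50 without CKO B, -1.45 without WT A and -2.20 without WT B. The difference of the ratio to Cdkn1c lay between -2.14 and -1.31 with a library left out.

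**Figure D2:**
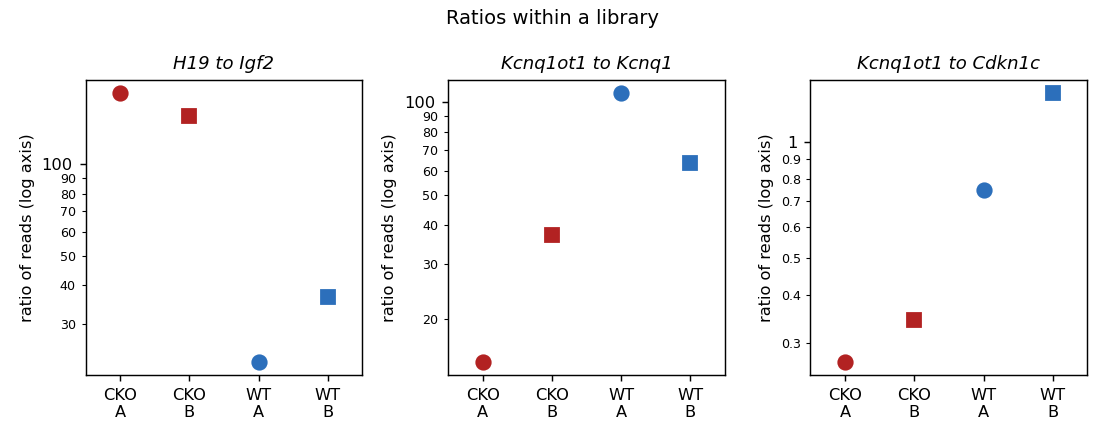
Ratios of reads within each library on log axes, for H19 to Igf2, Kcnq1ot1 to Kcnq1 and Kcnq1ot1 to Cdkn1c, with CKO A, CKO B, WT A and WT B from left to right. The H19 to Igf2 ratio is 144 or above in CKO and 36.8 or below in WT libraries, and both ratios of Kcnq1ot1 have their CKO points under their WT points.

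Kcnq1, a voltage-gated potassium channel gene, was near the limit of detection. Its 27 reads in CKO A and 11 in CKO B compare with 8 in WT A and 24 in WT B, so that the groups overlapped. Its log2 change was 0.25 ± 0.63 (SE, edgeR adjusted p = 0.844), with the sign turned without CKO A (-0.38) and without WT A (-0.25). Its exons share 2.96% of their bases with Kcnq1ot1 on the other strand.

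Slc22a18, a transporter gene next to Cdkn1c, had 16 reads in CKO A and 17 in CKO B, against 7 in WT A and 2 in WT B. The groups did not overlap. It reached the test through its CKO libraries, and its log2 change of 1.82 ± 0.72 (SE, n = 2 per group) did not pass (edgeR adjusted p = 0.161). The ratio of summed reads was 3.65 with an exact 95% interval of 1.71 to 8.68, which covers counting error only. The change ran from 1.12 without WT B to 3.08 without WT A.

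Phlda2 and Ascl2, both best known from the placenta, were too low to be tested. Phlda2, which encodes a pleckstrin homology domain protein that restrains placental growth, had 1 read in each CKO library, 2 in WT A and 0 in WT B, where a count of 0 allows up to 0.113 CPM. Ascl2, a transcription factor gene of trophoblast and intestinal stem cells, had 0 reads in CKO A and 3 in CKO B, against 5 in WT A and 7 in WT B. Its reads summed to 3 in CKO and 12 in WT cells, a ratio of 0.249 with an exact 95% interval of 0.0451 to 0.923 for counting error only. The 0 reads of CKO A allow up to 0.114 CPM.

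Cd81 and Tssc4 lie between the domains' control regions and are expressed from both copies in most tissues. Cd81, a tetraspanin of the cell surface, was at 722 CPM in CKO A and 680 in CKO B, against 586 in WT A and 575 in WT B. Tssc4, whose protein acts in spliceosome assembly, was at 56.8 CPM in CKO A and 54.8 in CKO B, against 48.2 in WT A and 43.8 in WT B. Both were slightly above WT levels in each CKO library. Neither passed (log2 change 0.27 ± 0.12 SE, edgeR adjusted p = 0.214 for Cd81, and 0.28 ± 0.11 SE, adjusted p = 0.174 for Tssc4). Tssc4 shares 11.9% of its merged exons with Trpm5 on the other strand, and Cd81 shares 3.61% with the antisense gene R74862.

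Among the 8 tested genes 6 had groups that did not overlap, against 57.1% of all tested genes. H19, Slc22a18, Cd81, Tssc4 and Cdkn1c, 5 of the 8, lay above WT in both CKO libraries, against 27.7% of tested genes, and 1, Kcnq1ot1, lay below, against 29.3%. Slc22a18 reached the test only through its CKO libraries, so it had to lie above WT, and nothing is read from this count. The median log2 change of the 8 was 0.28, and that of all tested genes was -0.01.

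**Figure D3:**
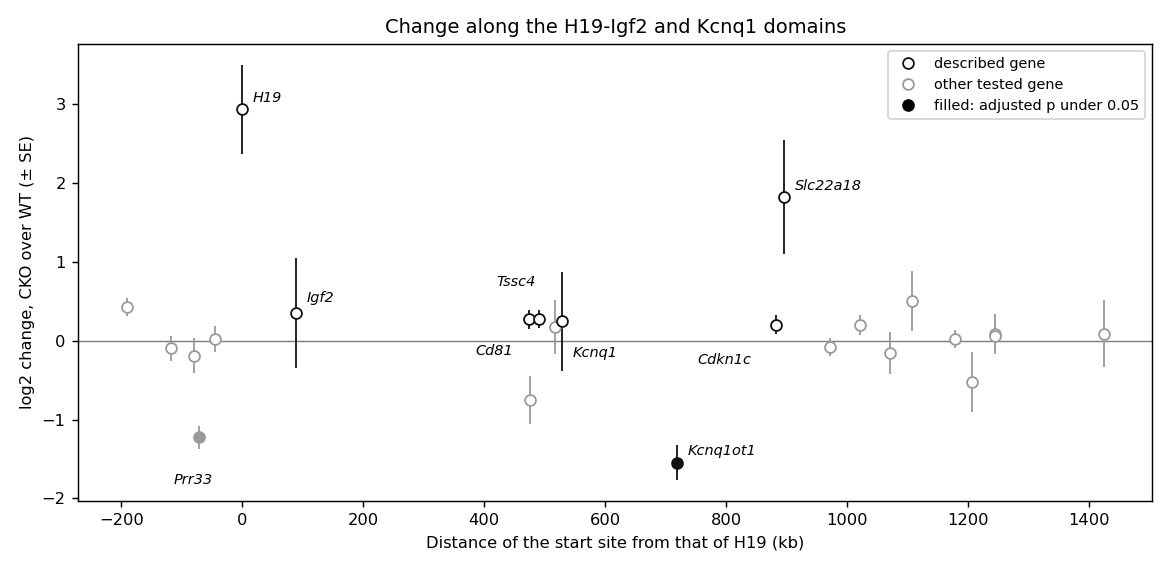
Log2 change of CKO over WT (± SE, edgeR) for the 24 tested genes from Ctsd to Shank2, placed by the distance of their start sites from that of H19 in kilobases, with the described genes in black, the others in grey and filled symbols for adjusted p under 0.05. Kcnq1ot1 (-1.55) and Prr33 (-1.23) are the filled symbols, where 7.61% of all tested genes were called, and H19 (2.93) is the highest.

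The other genes of the interval gave no called member of the list drawn up for it. Prr33, called lower in the same interval, was not on that list. Of 25 neighbours listed, 14 were tested and 0 passed in edgeR, against 7.61% of all tested genes. Among the 14, 1 had an unadjusted edgeR p under 0.05, as did 3826 of all 15210 tested genes. DESeq2 called 1 of the 14 and 1559 of all tested genes, and limma-voom called 0 of the 14 and 850 of all. The one nearest to the threshold was Ctsd, a lysosomal protease gene beyond H19, at 275 CPM in CKO A and 260 in CKO B, against 196 in WT A and 202 in WT B (log2 change 0.43, edgeR adjusted p = 0.0531). Cars, Mrgpre and Tnfrsf23 followed with log2 changes of 0.20, -0.53 and 0.51 and edgeR adjusted p of 0.388, 0.438 and 0.45.

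Genes of the IGF pathway, through which Igf2 acts, moved in both directions. Of 27 tested, 6 were higher and 3 lower in CKO cells, with a median log2 change of -0.04. Of all tested genes 4.85% were higher and 2.75% lower. The count of 9 fell with either WT library left out, as did the count over all tested genes. Igf1r, the receptor that binds Igf2, was lower, at 96.4 CPM in CKO A and 116 in CKO B, against 225 in WT A and 179 in WT B (log2 change -0.93, edgeR adjusted p = 0.0128). The binding protein genes Igfbp7 (1.38), Igfbp6 (1.13), Igfbp4 (0.95) and Igfbp2 (2.07) were higher on the log2 scale and Igfbp5 (-0.78) was lower. With WT B left out Igfbp4, Igfbp2 and Igfbp5 were not called (edgeR adjusted p = 0.0939, 0.0868 and 0.0717 in that order), nor were Igfbp2 and Igfbp5 with WT A left out (0.0944 and 0.137). Igf2r, whose product removes Igf2 from the cell surface, had overlapping groups (log2 change -0.06, adjusted p = 0.894).

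Factors that set or keep imprints gave 1 lower and 0 higher gene among 24 tested, with a median log2 change of -0.14, and a share of 1 in 24 is near the 2.75% of all tested genes that were lower. The called gene was Zfp57, whose protein protects methylated control regions, at 27.1 CPM in CKO A and 23.4 in CKO B, against 45.9 in WT A and 47.1 in WT B (log2 change -0.88, edgeR adjusted p = 0.00777). Without WT B neither Zfp57 (log2 change -0.85) nor any other factor was called. With CKO A or CKO B left out more factors were called, and Dnmt1, the targeted gene, was among them. In those fits 1 CKO library remained, so the spread between the CKO libraries did not enter. Ctcf was at 88.1 and 85.4 CPM in CKO, against 98.5 and 95.2 CPM in WT libraries, and did not pass (adjusted p = 0.405). Of 6 relatives of Cdkn1c among the Cdk inhibitors, all tested, Cdkn1a (log2 change 1.94) and Cdkn2a (1.79) were called higher. Of all tested genes 4.85% were called higher. Leaving out CKO B, WT A or WT B ended the call of Cdkn2a (log2 changes 1.74, 1.45 and 2.28 in that order). Of 46 imprinted genes tested elsewhere in the genome, Herc3 (2.20) and Impact (0.59) were higher and Ppp1r9a (-1.02), Rasgrf1 (-3.13) and Inpp5f (-0.68) were lower. Of all tested genes 7.61% were called. The count of 5 moved with a library left out, as did the count over all tested genes, so nothing is read from its moves. The call of Impact (edgeR adjusted p = 0.0449) was lost in limma-voom (0.0682), with RLE factors (0.0518), with a mean CPM of at least 1 (0.0532), and without CKO B (0.0936), WT A (0.0943) or WT B (0.288). Rasgrf1 was not called without WT B (edgeR adjusted p = 0.0602), and Inpp5f was not called without WT A (0.0657) or WT B (0.195).

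Markers of other cells varied beside these results. Their counts above or below WT stand beside 27.7% of all tested genes above and 29.3% below. The counts include markers too low to be tested. Chondrocyte markers summed to 43.1 CPM in CKO A and 55.3 in CKO B, against 343 in WT A and 72.6 in WT B, with 4 of 6 below WT in both CKO libraries and Matn1 at 0 in every library but WT A. Lipofibroblast and alveolar fibroblast markers summed to 453 and 877 CPM in CKO, against 327 and 306 CPM in WT libraries, with 7 of 7 above WT in both CKO libraries. Adventitial fibroblast markers summed to 1756 and 2084 CPM in CKO, against 1533 and 1580 CPM in WT libraries, and 5 of 7 were above WT. By these sums CKO B, the library with the most H19, also had the most of these 2 groups of fibroblast markers. The adventitial markers Pi16, Ly6a and Cd34 were nevertheless higher in CKO A than in CKO B. Within the WT pair WT A had more H19, with the higher lipofibroblast and the lower adventitial sum. Skeletal muscle markers, from a tissue with much H19 and Igf2, summed to 0.038 and 0.646 CPM in CKO, against 0.263 and 0.414 CPM in WT libraries. The summed ranges were 376 to 496 CPM in CKO and 336 to 386 CPM in WT for pericyte markers, 69.7 to 125 and 49.2 to 158 for epithelial markers, 76.9 to 123 and 68.1 to 94.4 for endothelial markers, and 25.4 to 45.6 and 26.7 to 34.5 for immune markers, CKO before WT. Mesothelial markers were at 0.517 to 13.9 CPM in CKO and 0.833 to 5.09 CPM in WT, erythroid markers, 5 of 5 below WT, at 7.41 to 14.0 CPM in CKO and 22.8 to 30.1 in WT, and Schwann cell markers, 2 of 4 above WT, at 11.9 to 17.2 CPM in CKO and 2.02 to 3.20 in WT. Pericyte markers lay above WT in both CKO libraries for 3 of 7 genes and below for 2. Among 6 immune markers 2 lay above and 2 below. Endothelial markers had 1 of 5 above, and skeletal muscle markers had 1 of 3 below. For epithelial and mesothelial markers 0 lay apart. The part of all these markers in the values of H19 and Kcnq1ot1 was not tested.

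The profiles most like those of 3 of the genes were found by the root mean square distance between centred log2 CPM over the 4 libraries. Nearest to H19 were Ccl5, Arc and Calml3 at distances of 0.129, 0.19 and 0.309. Ccl5, a chemokine gene, was at 3.84 and 6.12 CPM in CKO, against 0.658 and 0.0377 CPM in WT libraries. Its value in WT B is that of 1 read, below the 0.5 CPM added before logs were taken. The distance of Ccl5 from H19 therefore rests in part on that addition. Col25a1, Col6a6 and Thy1 were nearest to Igf2 (0.109, 0.234 and 0.242), all with WT A above CKO A. Wbp1, Pgls and Mthfd1 were nearest to Cdkn1c (0.0111, 0.0125 and 0.0151). With 4 libraries many genes can come this close, and none of the 9 lies on chromosome 7.

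**Figure D4:**
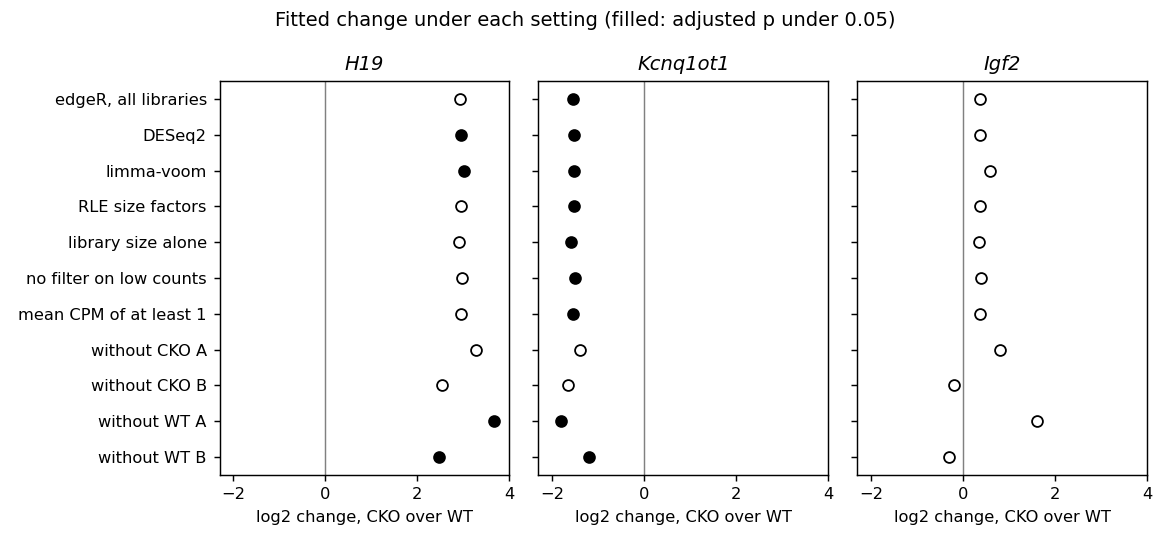
Fitted log2 change of CKO over WT for H19, Kcnq1ot1 and Igf2 in edgeR with all libraries and under the 10 alternatives, with filled symbols for adjusted p under 0.05. H19 stays between 2.47 and 3.67 with 4 alternatives filled, Kcnq1ot1 between -1.81 and -1.19 with 8 filled, and Igf2 crosses 0 with none filled.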

How the data were processed

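Per the file headers, 1 table deposited by the authors holds raw read counts per gene and, from their own comparison, log2 changes (mutant over control) and p-values, raw and adjusted. The submitters' processing notes name GRCm38.p6, STAR, Trimmomatic 0.36, cutadapt 2.5 and FastQC 0.11.8, as well as edgeR 3.28.1. What counted the reads, and whether by strand, is not given in the sources used here. Columns named Control and Mutant were read as WT and CKO. They carry no replicate number, and 3 of the 4 open with a number that WT A lacks, so the fit without WT A is the one within it. A further 4 columns of per-sample values were not used.

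All 15210 genes kept by filterByExpr (minimum count 10) were fitted in edgeR 4.0.16 (R 4.3.3) with TMM scaling and robust quasi-likelihood tests, with Benjamini-Hochberg adjustment over all of them and a threshold of 0.05. CPM are on TMM-scaled library sizes, and 1 read was 0.0377 to 0.0438 CPM. Each standard error was taken from the fit as the size of the log2 change over the root of its F statistic. The floor for a count of 0 is 3 reads. Both this floor and the intervals (95%, exact binomial) reflect counting error alone, since PCR duplicates are not separate molecules. Positions and merged exons came from GENCODE M21 on GRCm38, matched for 31171 of 31247 genes (99.8%).

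The fit was tested on simulated data. Replicates of a group differed by more than sampling noise (35.9 for the CKO pair and 20.2 for the WT pair as chi-square per degree of freedom). The labels do not tie samples to litters, and p-values measure only the spread between these samples, which may be technical in part. Alternatives were DESeq2 1.42.0, limma-voom (limma 3.58.1), RLE factors, library size alone, no filter, a mean CPM of at least 1, and leaving out each library. A fit with a library left out has 1 library in a group, so its calls rest on the spread within the other group alone. The genes described and all lists were chosen with earlier results of these data known. The naming rule took all 10 genes, Dnmt1, up to 6 called genes per list (or 4 with the lowest p) and the 3 nearest profiles to H19, Igf2 and Cdkn1c among named genes of mean log2 CPM of at least 1, with 0.5 CPM added. Igf2r, Ctcf, Malat1, Neat1, Airn and Prr33 were named after their values were seen.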

Additional observations from a re-analysis of the deposited data

How the results depend on the processing

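The count of called genes, 1157 of all tested, was 2459 with no filter on low counts and 339 to 1842 with a library left out. Of the described genes 1 was called, 2 in DESeq2, 2 in limma-voom and 0 to 2 with a library left out. Over all tested genes DESeq2 called 1559, limma-voom 850, RLE factors 1042, library size alone 1297 and a mean CPM of at least 1 called 905. Among neighbours the count of 0 became 1 in DESeq2, 1 with RLE factors, 1 with no filter and 1 with a mean CPM of at least 1. Imprint factors numbered 3 in DESeq2, 2 with library size alone, 3 with no filter and 0 to 4 with a library left out. Cdk inhibitors numbered 5 with no filter and 1 to 3 with a library left out. Other imprinted genes numbered 8 in DESeq2, 8 with library size alone, 15 with no filter and 3 to 12 with a library left out. IGF pathway genes numbered 4 to 13 with a library left out. Signs turned in 4 of 78 recomputed changes of the 8 tested genes, for Igf2 without CKO B (-0.20) and without WT B (-0.30), and for Kcnq1 without CKO A (-0.38) and without WT A (-0.25). With a library left out, the log2 change ran from -0.30 to 1.60 for Igf2 and from -0.38 to 1.10 for Kcnq1. The cause was not tested, beyond the genes and libraries that each alternative adds or removes. The groups did not overlap in any of the 3 read ratios, so leaving out a library could not turn their direction. Dividing by the deposited gene lengths cannot change their difference between groups either. No paired analysis was possible because the count columns carry no replicate number. With 2 libraries per group, and under 30 reads per library for Kcnq1, Slc22a18, Ascl2 and Phlda2, depth and replication limit what can be seen of those genes.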

Other observations

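Prr33, on the far side of H19 from Igf2, was the other called gene among the 24 tested from Ctsd to Shank2. Those 2 of 24 were near the 7.61% called among all tested genes, so nothing is read from this count. Prr33 was named after its values were seen. It was at 33.1 CPM in CKO A and 38.9 in CKO B, against 75.8 in WT A and 92.6 in WT B, with a log2 change of -1.23 ± 0.14 (SE, n = 2 per group, edgeR adjusted p = 0.0044). Its gene (chromosome 7, 142491074 to 142506771, GRCm38) overlaps Lsp1 and Tnnt3 on the other strand, with 0 shared exonic bases in GENCODE M21. The groups of Lsp1 and of Tnnt3 overlapped (log2 changes -0.10 and -0.19).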
